A study of Mus musculus with 15 samples.

Results

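Klf2, Klf4, Nos3, Thbd and Piezo1, genes that endothelial cells use to sense or answer blood and lymph flow, were followed in cultured mouse lymphatic endothelial cells given vascular endothelial growth factor C (VEGF-C). The genes were taken by symbol from the complete gene table, where 5 of 45706 entries matched, and all 5 passed the filter on low counts. The cells came from female C57Bl/6 mice, were defined as Pdpn+ CD31+ CD45-, and were obtained from popliteal, inguinal, axillary, brachial and cervical lymph nodes that had been pooled. Every group was grown in MEMα with 10% fetal bovine serum, and no flow or shear is named for any of them. The groups were unstimulated cells, cells given 10 ng/mL and cells given 100 ng/mL of murine recombinant VEGF-C produced in HEK-293E, a human kidney cell line, each for 72 h and each with 5 libraries lettered A to E. The labels leave unsaid whether the libraries of a group came from different cultures, and the p-values therefore reflect library-to-library spread that could be purely technical.

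Endothelial cells read the drag of moving fluid through junctional complexes, G proteins and mechanically gated channels such as PIEZO1. A MAP kinase cascade that ends in ERK5 and the MEF2 transcription factors then switches on Klf2 and Klf4, whose zinc finger proteins bind GC-rich and CACCC-type DNA. In blood vessels these factors are known for raising Nos3, the endothelial nitric oxide synthase, and Thbd, thrombomodulin, and for lowering endothelin and leukocyte adhesion molecules; in lymphatic vessels flow sensing is known for its part in valve formation.

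At 100 ng/mL, 3 of the 5 genes rose, Thbd fell and Piezo1 was not called. Klf2 was 3.73-fold, Nos3 1.58-fold and Klf4 1.54-fold higher than in unstimulated cells, and Thbd was 2.21-fold lower. That makes 4 of 5 genes called against 42.8% of all 17650 tested genes, 3 higher against 21.3% and 1 lower against 21.5%. The libraries of both groups did not overlap for 3 of the 5 genes (Klf2, Nos3 and Thbd), against 27.2% of all tested genes. A gene was called where its adjusted p in edgeR's quasi-likelihood test, with Benjamini-Hochberg adjustment over all tested genes, was under 0.05. With calls this common over all genes, the share of the 5 that were called carries little information by itself, and the sizes and directions below are the result.

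The libraries held 27784906 to 38590841 estimated counts. Markers of the labelled cell type were present: in unstimulated cells Pecam1 (CD31) averaged 1590 CPM (TMM-scaled counts per 1000000) and Pdpn 102 CPM, while Ptprc (CD45) averaged 4.47 CPM. Prox1, the transcription factor that defines lymphatic identity, averaged 242 CPM and Lyve1, a hyaluronan receptor, 99.6 CPM, both looked up for this check. Of the other lymphatic markers listed, Ccl21a had 8 and Mmrn1 4 counts over all 15 libraries. Ccl21a is one of several near-identical gene copies, and whether counting split its reads was not tested. Markers of other cells moved with the 100 ng/mL dose. The summed level of 17 fibroblastic and mural markers was 3230 to 4720 CPM unstimulated, 2710 to 4480 CPM at 10 ng/mL and 958 to 1400 CPM at 100 ng/mL, with 14 of 17 called lower at 100 ng/mL and 0 called higher. That of 11 leukocyte markers was 55.4 to 155, 48.1 to 127 and 25.8 to 46.6 CPM in the same order, with 9 of 11 lower. The summed level of 10 LEC (lymphatic endothelial cell) markers went the other way. It was 1360 to 1770 CPM unstimulated, 1760 to 1970 CPM at 10 ng/mL and 2620 to 4960 CPM at 100 ng/mL. At 100 ng/mL 6 of these 10 were called higher. Over all tested genes 21.3% were called higher and 21.5% lower at that dose. Lum, Cd3e and Cd79a had 41, 6 and 41 counts over all libraries and were not tested. In such bulk libraries fewer cells of a type and less RNA per cell cannot be told apart, and the part of these markers in the results below was not tested.

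**Figure D1:**
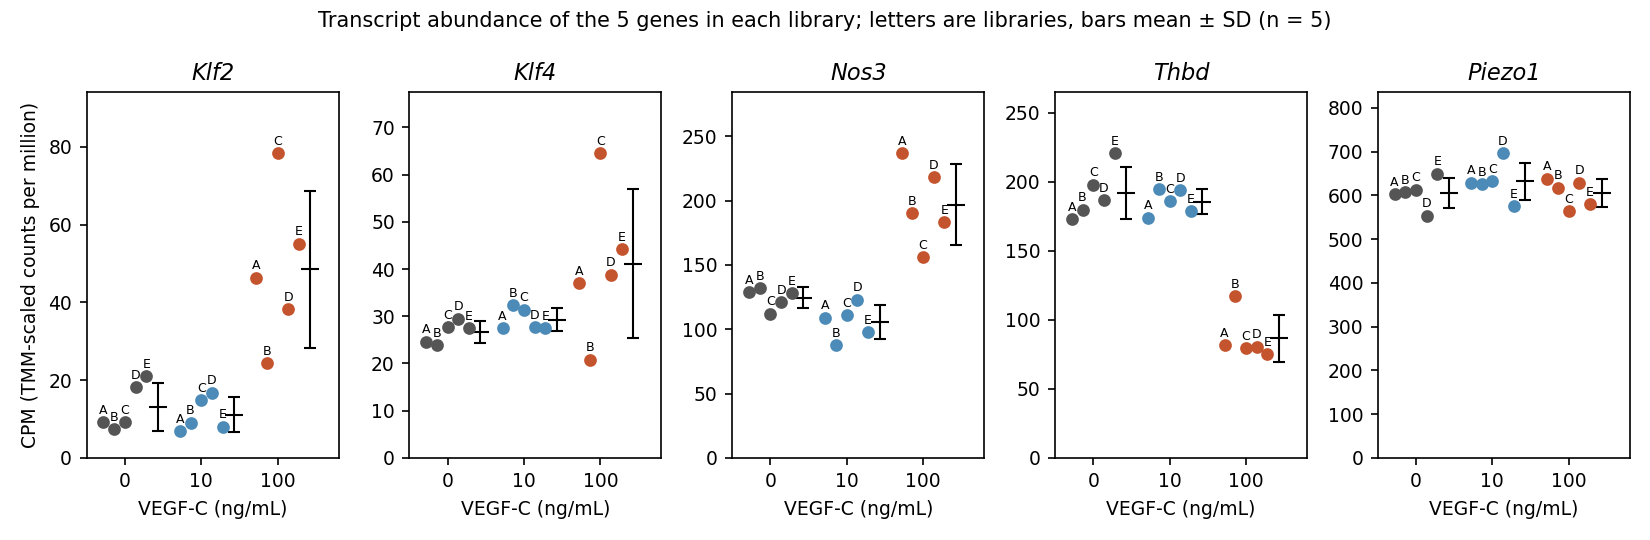
CPM of each gene in each library by VEGF-C dose in ng/mL (letters are libraries, bars are mean ± SD, n = 5). Klf2 and Nos3 lie higher and Thbd lower in every 100 ng/mL library, Klf4 is spread from 20.8 to 64.6 CPM there, and the Piezo1 groups overlap.

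Klf2 and Klf4 lie on chromosome 8 at 72319033 to 72321656 (plus strand) and on chromosome 4 at 55527143 to 55532466 (minus strand; GENCODE M21, GRCm38). The stretch upstream of each is shown because both genes rose and because a MEF2 motif lies in one and not in the other. The lines run 5′ to 3′ in the direction of transcription, from 250 to 81 bases before the RefSeq transcription start (GRCm38.p6; chr8:72318812-72318981 plus strand and chr4:55532556-55532725 minus strand), with the MEF2 motif and GC boxes in capitals.
Klf2: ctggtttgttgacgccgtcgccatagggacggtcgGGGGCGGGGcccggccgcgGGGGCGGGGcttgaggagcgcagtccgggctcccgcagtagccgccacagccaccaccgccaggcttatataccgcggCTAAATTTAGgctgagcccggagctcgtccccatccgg
Klf4: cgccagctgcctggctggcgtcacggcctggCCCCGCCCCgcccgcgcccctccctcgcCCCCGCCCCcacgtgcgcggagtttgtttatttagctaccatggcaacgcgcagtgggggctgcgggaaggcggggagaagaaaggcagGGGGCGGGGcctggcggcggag

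The Klf2 stretch is 70.6% and the Klf4 stretch 74.7% G and C. In the windows of 300 bases around the start, read on both strands, Klf2 held 1 match to CTANNNNTAG, the MEF2 motif, in the letters CTAAATTTAG beginning 118 bases before the start, and 2 matches to the GC box GGGGCGGGG. Klf4 held 3 GC boxes and no such MEF2 match. Piezo1 held neither but 1 CACCC box, as did Klf2, and none of the matches to these 3 motifs overlapped. Among 32851 such windows of all genes, 3.69% held the MEF2 motif, 11.45% the GC box and 57.52% CACCC. These 3 motifs were picked, after their matches were seen, from 12 patterns searched. The other patterns were TATTTATA (in 1.7% of windows), TA followed by 4 bases of A or T and TA (9.32%, with 1 match in Klf2, inside the MEF2 motif), CCGCCC (35.66%, which lies within every GC box, with 2 matches in Klf2, 4 in Klf4 and 1 in Piezo1), the CArG box (1.63%), TGACTCA or TGAGTCA (5.2%), ACCGGAAG (2.3%), CCAAT (37.41%), TATAAA (13.62%, with 1 match in Piezo1) and GGAAA (61.34%, with 1 match in Klf2). Windows of Edn1 and Mef2c were also looked at and are not described. A match is a description of the letters and says nothing of binding.

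Klf2, the transcription factor most closely tied to laminar flow, measured 9.18, 7.4, 9.24, 18.2 and 21.0 CPM in unstimulated libraries A to E. At 10 ng/mL it measured 6.88, 9.01, 14.9, 16.8 and 8.03 CPM, and at 100 ng/mL 46.3, 24.3, 78.4, 38.2 and 55.1 CPM. All 5 libraries at 100 ng/mL lay above every other library, C highest and B lowest; within the lower groups, unstimulated D and E and 10 ng/mL C and D were the high ones. The mean went from 13.0 ± 6.14 to 48.5 ± 20.2 CPM (SD, n = 5), a log2 fold change of 1.90 ± 0.36 (SE; 95% interval 1.12 to 2.68; edgeR adjusted p = 0.0007). Against 10 ng/mL (11.1 ± 4.43 CPM) the log2 fold change was 2.12 ± 0.37 (edgeR adjusted p = 0.000334). Klf2 was the most variable of the 5 genes, with coefficients of variation of 47.3%, 39.8% and 41.7% over the libraries in the order of dose.

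Klf4, its close relative, stood at 24.6, 23.9, 27.7, 29.5 and 27.5 CPM in unstimulated libraries A to E. It stood at 27.5, 32.4, 31.4, 27.7 and 27.5 CPM with 10 ng/mL, and at 37.0, 20.8, 64.6, 38.8 and 44.2 CPM with 100 ng/mL. Libraries A, C, D and E at 100 ng/mL lay above every unstimulated library and B below every one of them, so the groups overlapped. The mean went from 26.7 ± 2.33 to 41.1 ± 15.8 CPM (SD, n = 5), a log2 fold change of 0.62 ± 0.20 (SE; 95% interval 0.19 to 1.06; edgeR adjusted p = 0.0213). The call was lost without library C, when the log2 fold change was 0.40 and the edgeR adjusted p 0.0585. It was also lost in a fit of only the 10 libraries compared (edgeR adjusted p = 0.0612) and with limma on the deposited RPKM with a pseudocount of 1 (adjusted p = 0.0611). Against 10 ng/mL (29.3 ± 2.38 CPM) the log2 fold change of 0.49 ± 0.20 was not called (edgeR adjusted p = 0.0662), and it was called without library B (0.66, edgeR adjusted p = 0.00145). The coefficient of variation of Klf4 was 8.76% unstimulated, 8.11% at 10 ng/mL and 38.5% at 100 ng/mL. Libraries C and E were the 2 highest and B the lowest at 100 ng/mL for both Klf2 and Klf4. The longest run of bases that their transcripts share is 14, and of stretches of 50 bases 0 of 1798 in Klf2 and 8 of 2980 in Klf4 recur in another gene's transcripts.

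Nos3, which makes nitric oxide from arginine, measured 129, 132, 112, 121 and 128 CPM in unstimulated libraries A to E. At 10 ng/mL the values were 109, 87.6, 111, 123 and 97.6 CPM, and at 100 ng/mL 237, 190, 156, 218 and 183 CPM. Every library at 100 ng/mL lay above every library of the other groups, with A highest and C lowest, so the order of libraries was not that of Klf2. The mean went from 124 ± 7.84 to 197 ± 31.4 CPM (SD, n = 5), a log2 fold change of 0.66 ± 0.11 (SE; 95% interval 0.43 to 0.89; edgeR adjusted p = 0.000179). Against 10 ng/mL (106 ± 13.6 CPM) it was 0.89 ± 0.11 (edgeR adjusted p = 1.3e-05). Nos3 lies on chromosome 5 at 24364810 to 24384474 (plus strand) and has 4132 exon bases, of which the antisense gene Gm15587 covers 1040 and Atg9b 294. The deposited length of Nos3, 2813 bases, is close to the 2798 exon bases free of other genes. The sources used here do not say how shared bases or strand were treated in counting.

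Thbd, the endothelial receptor that turns thrombin from clotting to protein C activation, measured 173, 180, 198, 187 and 221 CPM in unstimulated libraries A to E. At 10 ng/mL it measured 174, 195, 186, 194 and 179 CPM, and at 100 ng/mL 81.5, 117, 79.4, 80.5 and 75.1 CPM. All 5 libraries at 100 ng/mL lay below every other library, and B was the highest of them. The mean went from 192 ± 19.0 to 86.7 ± 17.1 CPM (SD, n = 5), a log2 fold change of -1.15 ± 0.11 (SE; 95% interval -1.38 to -0.92; edgeR adjusted p = 1.05e-06). Against 10 ng/mL (186 ± 9.14 CPM) it was -1.10 ± 0.11 (edgeR adjusted p = 1.76e-06). Thbd lies on chromosome 2 at 148404466 to 148408188 (minus strand), and 0 of its 3674 stretches of 50 bases recur in another gene's transcripts.

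Piezo1, the mechanically gated cation channel, measured 603, 607, 613, 554 and 650 CPM in unstimulated libraries A to E. At 10 ng/mL it measured 629, 625, 632, 697 and 576 CPM, and at 100 ng/mL 638, 618, 564, 629 and 580 CPM. The groups overlapped throughout. The means were 606 ± 34.1 and 606 ± 32.0 CPM unstimulated and at 100 ng/mL (SD, n = 5), a log2 fold change of 0.00 ± 0.06 (SE; 95% interval -0.13 to 0.13; edgeR adjusted p = 1.0). The 95% interval on the fold runs from 0.914 to 1.09. Against 10 ng/mL (632 ± 43.1 CPM) the log2 fold change was -0.06 ± 0.06 (edgeR adjusted p = 0.453). Piezo1 lies on chromosome 8 at 122481698 to 122551329 (minus strand), and Ctu2 on the opposite strand covers 2441 of its 9935 exon bases. The deposited length of Piezo1 was 7534 bases, near the 7494 exon bases free of other genes.

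**Figure D2:**
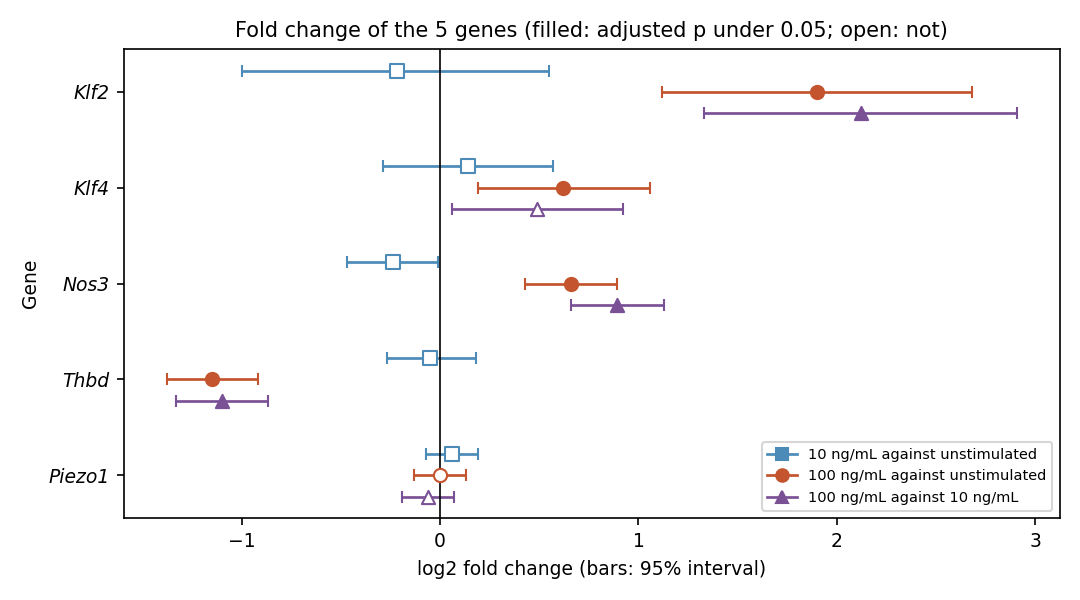
Log2 fold change of each gene with its 95% interval in the 3 comparisons (filled symbols have an edgeR adjusted p under 0.05, open symbols do not). At 100 ng/mL Klf2 stands at 1.90 and Thbd at -1.15 against unstimulated cells, and all intervals at 10 ng/mL lie within -1.0 to 0.57.

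At 10 ng/mL edgeR called 0 of the 5 genes and 0.0% of all tested genes. At an unadjusted edgeR p under 0.05 there were 843 genes, 1 of them a member, Nos3; DESeq2's Wald test called 8 genes, limma-voom 0 and edgeR with 3 surrogate variables 25 (21 higher and 4 lower), none of them a member. DESeq2 gave no adjusted p to Klf2 and Klf4 here. These fits do not match libraries between groups; deviations of the unstimulated and 10 ng/mL libraries ran together under different letters, and a comparison matched in that way was not made. The log2 fold changes against unstimulated cells were -0.22 (95% interval -1.0 to 0.55) for Klf2, 0.14 (-0.29 to 0.57) for Klf4, -0.24 (-0.47 to -0.01) for Nos3, -0.05 (-0.27 to 0.18) for Thbd and 0.06 (-0.07 to 0.19) for Piezo1. Nos3 was lower than every unstimulated library in 4 of 5 libraries at 10 ng/mL, with an edgeR adjusted p of 0.97. The interval for Klf2 allows folds from 0.501 to 1.46, so this unmatched fit cannot tell a change within that range from none. In the direct comparison of the doses, 3 of the 5 genes were called, against 40.5% of all genes. Klf2 and Nos3 were higher at 100 than at 10 ng/mL (19.9% of all genes) and Thbd lower (20.6%). This comparison shares its 100 ng/mL libraries with the one above, and the lower dose shares the unstimulated ones, so they are not independent of each other.

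Levels can be set against one another only per transcript length, for which the deposited RPKM, which scale reads by transcript length and depth, serve. Unstimulated, Piezo1 was highest at 43.4 ± 3.08 RPKM, before Thbd at 27.8 ± 3.04, Nos3 at 23.9 ± 1.73, Klf4 at 4.70 ± 0.396 and Klf2 at 3.80 ± 1.82 RPKM (SD, n = 5). The ranges of Klf4 and Klf2 overlapped, and those of Thbd (25.4 to 32.8 RPKM) and Nos3 (21.3 to 25.2 RPKM) touched closely without overlap. At 10 ng/mL the order was the same, with 44.2 RPKM for Piezo1, 26.3 for Thbd, 19.8 for Nos3, 5.05 for Klf4 and 3.17 for Klf2. At 100 ng/mL Piezo1 stood at 42.2 ± 2.11, Nos3 at 36.7 ± 5.73, Klf2 at 13.7 ± 5.71, Thbd at 12.2 ± 2.41 and Klf4 at 7.06 ± 2.70 RPKM. There the ranges of Piezo1 and Nos3 overlapped, as did that of Klf2 (6.89 to 22.1 RPKM) with both Thbd and Klf4. By mean RPKM, Nos3 stood above Thbd there, and Klf2 above both Thbd and Klf4.

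CPM depends on what else is in the library, so each gene was also set against endothelial genes of the same library, a comparison chosen after the fold changes were seen. Cdh5, the junctional cadherin of endothelium, itself rose from 2160 to 3450 CPM, and Pecam1 went from 1590 to 1810 CPM. Relative to Cdh5, the log2 ratio at 100 ng/mL minus unstimulated was 1.25 for Klf2 (exact permutation test, Benjamini-Hochberg p over 10 ratios = 0.0528), -0.13 for Klf4 (0.679), -0.02 for Nos3 (0.833), -1.83 for Thbd (0.0198) and -0.67 for Piezo1 (0.0198). Relative to Pecam1 it was 1.73 for Klf2 (exact permutation test, adjusted p = 0.0198), 0.35 for Klf4 (0.219), 0.46 for Nos3 (0.0476), -1.35 for Thbd (0.0198) and -0.18 for Piezo1 (0.147). The smallest two-sided p that 5 against 5 libraries allow is 0.00794. Thbd was lower on both references and Klf2 higher, though for Klf2 only the ratio to Pecam1 passed the threshold. The ratio of Nos3 to Cdh5 differed by less than its spread between libraries (SD 0.10 and 0.17), and Piezo1 was lower relative to Cdh5.

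**Figure D3:**
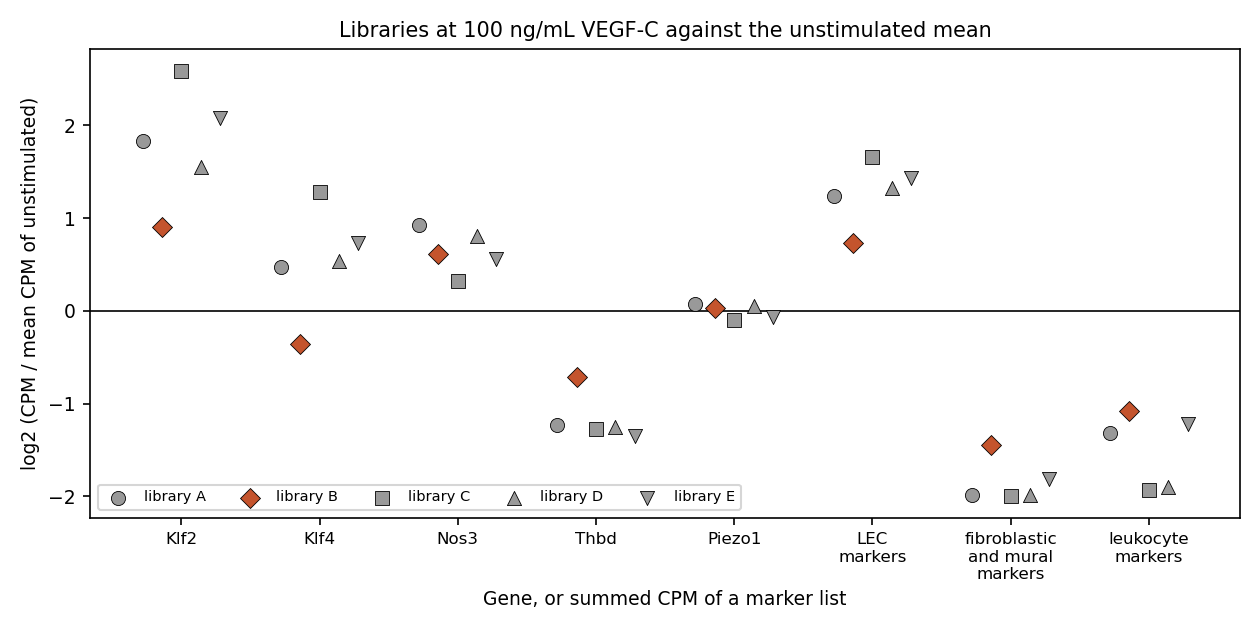
Log2 of each 100 ng/mL library's CPM over the mean CPM of the unstimulated libraries, for the 5 genes and for the summed CPM of 3 marker lists (library B in orange). Library B lies nearest to the unstimulated mean for Klf2, Thbd and the summed markers and is the only one below it for Klf4.

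Library B at 100 ng/mL had the lowest Klf2 and Klf4, the highest Thbd, the lowest summed LEC markers (2620 CPM) and the highest fibroblastic and mural (1400 CPM) and leukocyte (46.6 CPM) sums of its group. Without that library Klf2 had a log2 fold change of 2.07, Klf4 0.79 and Thbd -1.28, and all remained called. Dropping 3 libraries that earlier results of these data had set apart (B of the 100 ng/mL group, D of the 10 ng/mL group, E of the unstimulated group) gave 4 of 5 called, with Klf2 at 2.31. Klf2 was lowest of its group in that B (24.3 CPM) and highest in that D (16.8 CPM) and that E (21.0 CPM). A larger Klf2 fold change thus follows from the choice of libraries and is no separate evidence. The part of the marker sums in the spread of these genes was not tested.

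The sensors and the cascade that lead to Klf2 were followed in a list of 25 genes, all tested. Of these 14 rose and 4 fell at 100 ng/mL, with a median log2 fold change of 0.23, beside 21.3%, 21.5% and 0.008 over all tested genes. The 14 include the endothelial reference genes Cdh5 (0.67) and Pecam1 (0.19, not called under some settings), and Flt4, which is also a LEC marker. The part of the marker shifts in these rises was not tested. Piezo2, the second Piezo channel, rose most, from 14.9 ± 3.42 to 195 ± 45.5 CPM (SD, n = 5; log2 fold change 3.71, edgeR adjusted p = 1.9e-08), while Piezo1 did not pass. Per length Piezo2 went from 0.549 to 7.0 RPKM, still below Piezo1 at 42.2 RPKM. Mef2c, one of the MEF2 factors, rose from 23.4 ± 4.83 to 120 ± 17.3 CPM (log2 fold change 2.35, edgeR adjusted p = 4.66e-08). Its relatives Mef2a and Mef2d rose by 0.26 and 0.28 on the log2 scale. Plxnd1, a semaphorin receptor that also senses force, rose from 755 to 2290 CPM and the VEGF receptors Flt4 and Kdr from 615 to 1580 and from 310 to 965 CPM. The 4 that fell were Heg1, a receptor that binds the CCM complex (1260 to 410 CPM), Gnaq, a G protein α subunit (315 to 145 CPM), Pkd2, a calcium channel (130 to 104 CPM), and Krit1 of the CCM complex (71.0 to 62.7 CPM). Map2k5 and Mapk7, which encode MEK5 and ERK5, were not called, with log2 fold changes of -0.03 and 0.02. Mef2a, Mef2d, Kdr, Krit1, Map2k5 and Mapk7 were named after their values were seen.

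Of 19 mechanosensitive channels and their partners, 15 were tested, 4 rose and 3 fell, with a median of 0.00. As shares of the 15 tested, both counts were not far from the 21.3% called higher and 21.5% called lower among all tested genes. Piezo2, Pkd1, Pkd2 and Trpv4 also stand in the list above. Kcnj2, an inward rectifier potassium channel, rose from 1.15 to 7.80 CPM, Tmem63b, an osmosensitive channel, from 57.7 to 84.0 CPM and Pkd1 from 233 to 304 CPM. Mdfic, an auxiliary protein of Piezo channels, fell from 216 to 150 CPM (log2 fold change -0.52, edgeR adjusted p = 0.00405) and Trpc6 from 7.42 to 3.56 CPM. Pkd1 and Trpc6 were chosen after their values were seen.

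Genes known to be raised by laminar shear or by Klf2 went both ways. Of 20 listed, 18 were tested, 9 rose and 6 fell, with a median of 0.33. As shares of the 18 tested, both counts lay above the 21.3% called higher and 21.5% called lower among all tested genes. Slc9a3r2, a scaffold protein, rose from 104 to 216 CPM, Adamts1, a secreted protease, from 118 to 359 CPM, and S1pr1, the sphingosine 1-phosphate receptor, from 652 to 986 CPM. Sema3g, a secreted semaphorin, rose from 0.231 to 3.41 CPM and so stayed low. Cyp1b1, a cytochrome that is known to respond to shear, fell from 300 to 58.7 CPM. Ass1 and Asl, which recycle citrulline to the arginine that Nos3 uses, fell from 32.6 to 14.2 and from 30.5 to 25.2 CPM, and were named after their values were seen.

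Genes known to be lowered by laminar shear or Klf2 were lower throughout where called. All 17 were tested, 14 fell and 0 rose (1 at an edgeR adjusted p under 0.05 with 3 surrogate variables), with a median of -1.99. The 14 make 82.4% of the list, beside 21.5% of all tested genes called lower. Edn1, which encodes the vasoconstrictor endothelin 1, fell from a mean of 920 CPM (745 to 1010 over 5 libraries) to 61.5 CPM (34.4 to 119; log2 fold change -3.90, edgeR adjusted p = 1.7e-07). Bmp4, a growth factor, fell from 858 to 109 CPM, Icam1, a leukocyte adhesion molecule, from 542 to 195 CPM, and Thbs1, thrombospondin 1, from 4260 to 955 CPM. Cyr61, a matricellular YAP target also called Ccn1, fell from 1410 to 158 CPM; without library B at 100 ng/mL its log2 fold change moved from -3.16 to -3.74. Fibroblastic and mural cells also express several of these genes, and 14 of 17 of those cells' markers fell in the same libraries; their part in this fall was not tested. Ccl2, Il6 and Angpt2, named as the remainder, were not called, at -0.44, -1.34 and 0.53.

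**Figure D4:**
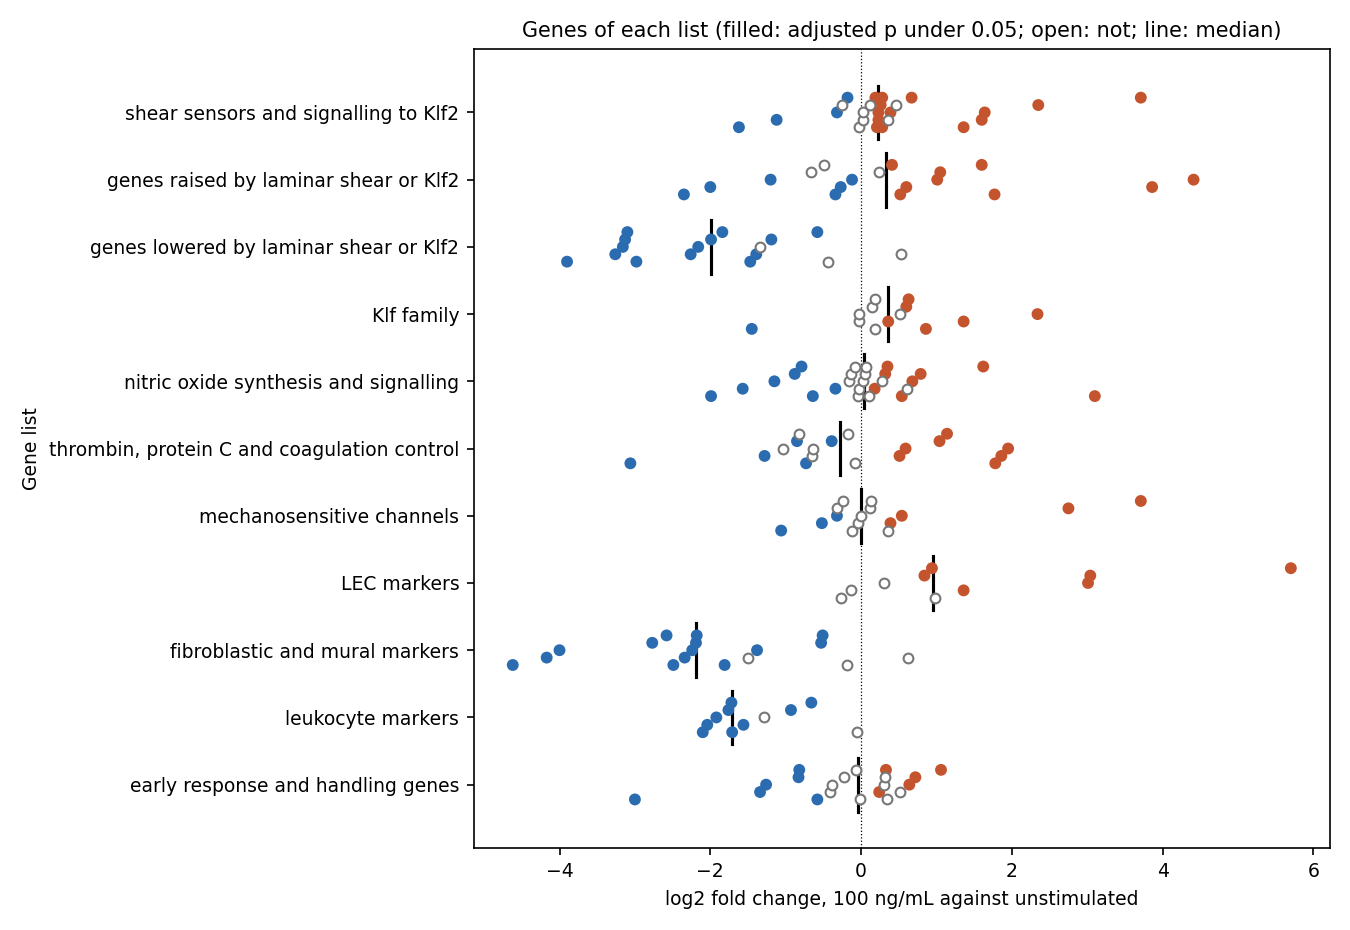
Log2 fold change at 100 ng/mL against unstimulated cells of every tested gene in each list (filled points have an edgeR adjusted p under 0.05, red higher and blue lower; black lines are list medians). All called genes of the list lowered by shear (median -1.99) and of the fibroblastic and mural markers (median -2.19) lie left of 0. In these lists Angpt2 (0.53) and Rgs5 (0.62), not called, lie to the right. The lists around nitric oxide and channels are centred near 0.

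Among the other Klf family genes, 13 of 15 were tested, 6 rose and 1 fell, with a median of 0.36. That is 46.2% higher and 7.69% lower, beside 21.3% and 21.5% of all tested genes. Klf9 rose from 18.2 to 46.9 CPM (log2 fold change 1.36, edgeR adjusted p = 3.12e-06), Klf10 from 56.3 to 102 CPM and Klf6 from 252 to 381 CPM. Klf12 rose and Klf15 fell at low levels, from 0.193 to 1.01 and from 1.07 to 0.388 CPM. Fold changes of Klf9 and Klf10, at 1.36 and 0.86, lay between those of Klf2 and Klf4; the differences between genes were not tested.

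Around Nos3, 26 of 27 genes of nitric oxide synthesis and signalling were tested, 8 rose and 7 fell, with a median of 0.03. That is 30.8% higher and 26.9% lower, not far from the 21.3% and 21.5% of all tested genes. Cav1, caveolin 1, which holds the endothelial enzyme inactive, fell from 1620 to 942 CPM. Ddah1, which clears a natural inhibitor of these enzymes, fell from 376 to 170 CPM. Nos2, the inducible synthase, rose from 1.56 to 13.4 CPM (log2 fold change 3.10, edgeR adjusted p = 1.97e-07), which per length is 1.67 RPKM beside 36.7 RPKM of Nos3. Qdpr, which regenerates the cofactor tetrahydrobiopterin, rose from 51.5 to 64.5 CPM.

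Around Thbd, 18 of 21 genes of thrombin, protein C and coagulation control were tested, 7 rose and 5 fell, with a median of -0.28. That is 38.9% higher and 27.8% lower, beside 21.3% and 21.5% of all tested genes. Without library B at 100 ng/mL the number that fell was 8. Procr, the endothelial protein C receptor, fell from 1160 to 701 CPM (log2 fold change -0.73 ± 0.18, edgeR adjusted p = 0.0037), and F2r, the thrombin receptor, from 174 to 132 CPM. Vwf, von Willebrand factor, fell from 48.5 to 5.85 CPM, F8, factor VIII, from 259 to 106 CPM and Entpd1, an ectonucleotidase, from 56.8 to 31.5 CPM. These 5 were named after their values were seen. Plau and Plat, the plasminogen activators, rose from 394 to 1430 and from 81.7 to 281 CPM. Pros1, protein S, the cofactor of activated protein C, rose from 235 to 482 CPM, Anxa5, annexin A5, from 470 to 709 CPM and F2rl3, a protease-activated receptor, from 5.94 to 23.0 CPM.

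At 10 ng/mL 0 genes of any of these lists were called by edgeR or limma-voom, nor by DESeq2 among those to which it gave an adjusted p, with 0 to 3 per list at an unadjusted edgeR p under 0.05. Of 20 early response genes, which answer handling as well as signals, 5 were higher and 6 lower at 100 ng/mL. That is 25.0% and 30.0%, not far from the 21.3% and 21.5% of all tested genes. The summed level of the early response genes overlapped between groups (1190 to 1550 CPM unstimulated, 996 to 1340 CPM at 100 ng/mL). Fos fell from 86.0 to 10.8 CPM and Myc rose from 120 to 251 CPM.

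Likeness of pattern was measured over the 15 libraries as the root mean square difference in log2 CPM after centring each gene, among 11141 genes, and is a description with no test. Nearest to Klf2 were Pik3cg, Disp2, Dnaic1, Plat and Tmc7 (0.295 to 0.408). Nearest to Klf4 were Prickle2, Nrp2, Cep97, Fbxo32 and H1f0 (0.159 to 0.176), and to Nos3 Dysf, Ubtd1, Pcbp3, Rapgef1 and Inpp5d (0.12 to 0.139). Thbd was followed most closely by Ddah1 at 0.091, then by Arhgef17, Fez2, Tspan4 and Ppp1r12b, and Piezo1 by Pip5k1a, Snap29, Ppp1r10, Ccnk and Triobp (0.052 to 0.064). The points share libraries, dose and depth, and the genes nearest to Piezo1 were, like it, not called at 100 ng/mL.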

How the data were processed

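RNA of 15 libraries (5 unstimulated, 5 each at 10 and 100 ng/mL VEGF-C) was sequenced from poly-A selected, strand-marking libraries, per the labels. The authors deposited estimated counts per gene, of which 64.31% are fractional, beside RPKM with a length per gene. The submitters' processing notes name FastQC, Bowtie2, limma and the builds GRCm38 and mm10; the sources used here do not name the counter or the annotation release, nor say how strand and reads with several matches were handled. The shorter deposited table stayed unused. Libraries were assigned to groups by their titles and table columns by their descriptions.

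The estimated counts were rounded and tested with edgeR 4.0.16 in R 4.3.3: genes kept by filterByExpr (17650), TMM scaling after the filter, 1 quasi-likelihood fit of all 15 libraries by group, Benjamini-Hochberg adjustment and a threshold of 0.05. The robust option and the order of filter and scaling were set after gene counts under 8 combinations of options had been seen, to match the earlier processing of these data (3766 higher and 3789 lower at 100 ng/mL); without the option 3778 and 3793 genes were called, and with scaling before the filter 3494 and 3969. The fit was tested on simulated data with known changes in 70, 70 and 60 genes of 1.5-, 2- and 4-fold. It recovered 65.7%, 91.4% and 96.7% of them, so changes near 1.5-fold can be missed. Far fewer genes were changed there than were called in the data. RPKM were used for levels between genes and, through limma 3.58.1 on the log2 scale, as an alternative. CPM are the rounded counts after TMM scaling to a common library size, and log2 ratios within libraries used these CPM with no prior count. The log2 CPM used for likeness and for correlations between libraries had a prior count of 2. With 17209 to 24888 counts for Piezo1 and 247 to 2392 for Klf2, counting error was smaller than the spread between libraries. No pair of libraries agreed within sampling noise (smallest chi-square per degree of freedom within a group 8.51).

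The members and gene lists were chosen with earlier results of these data known, and the lists hold textbook genes. Named genes are the members, up to 5 called genes with the smallest p from each list (2 from marker lists), and the genes of the cell gate; others are marked as named after their values were seen. Some genes of the lists are counted but not reported here by name. Alternatives covered scaling, filters, DESeq2 1.42.0, limma-voom, surrogate variables from sva 3.50.0, a replicate block, omitted libraries and thresholds. Sequences and coordinates came from RefSeq and GENCODE tables; Nos3 and Thbd were not in the promoter table.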

Additional observations from a re-analysis of the deposited data

Results flagged for a closer look

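Thbd in library B at 100 ng/mL, at 117 CPM, stood apart from the other 4 libraries of its group, which measured 75.1 to 81.5 CPM. Its gap to the nearest library was 0.847 of the group's range, past Dixon's critical value for 5 samples. It was the only such value in 15 groups tested (5 genes in 3 groups), and chance marks about 1 group in 20. The same library had the highest summed fibroblastic and mural markers of its group, 1400 CPM, and the lowest summed LEC markers, 2620 CPM; their part in the Thbd value was not tested. Thbd was lower at 100 ng/mL with and without it, at -1.15 and -1.28 on the log2 scale.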

How the results depend on the processing

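Over 30 alternative settings no called result changed direction, and Klf2, Nos3, Thbd and Piezo1 kept their side of the threshold in all 3 comparisons, except that DESeq2 gave Klf2 no adjusted p at 10 ng/mL. Against unstimulated cells at 100 ng/mL, Klf2 ranged from 1.61 to 2.31 on the log2 scale, Nos3 from 0.58 to 0.73, Thbd from -1.28 to -1.09 and Piezo1 from -0.04 to 0.03. Uncalled values that crossed 0 (Piezo1 here, Klf2 from -0.42 to 0.02 and Thbd from -0.08 to 0.01 at 10 ng/mL) are not counted as changes of direction. Klf4 depended on the setting. Its 100 ng/mL call was lost with only the 10 libraries compared (0.61, edgeR adjusted p = 0.0612), with limma on log2(RPKM + 1) (0.43, adjusted p = 0.0611) and log2(RPKM + 0.1) (0.49, adjusted p = 0.0618), and at a threshold of 0.01 (0.62); leaving out 1 library at a time gave 0.40 to 0.79, lost only without 100 ng/mL C. Against 10 ng/mL it was called with DESeq2 (0.48, adjusted p = 0.0449), 3 surrogate variables (0.46, edgeR adjusted p = 0.00146) and with 3 libraries dropped (100 ng/mL B, 10 ng/mL D, unstimulated E; 0.64, edgeR adjusted p = 0.00483), and ranged from 0.27 to 0.66 with 1 library left out. The number of members called was 3 to 4 at 100 ng/mL, 0 at 10 ng/mL and 3 to 4 between doses. The cause of these shifts was not tested.

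Library letters do not pair the samples: correlations of same-letter deviations ran from -0.342 to 0.132, and no library correlated best with its own letter in another group. Libraries of different letters deviated together instead: unstimulated A, B, C, D and E correlated best with 10 ng/mL E, A, B, C and D (0.487, 0.562, 0.655, 0.675 and 0.786). More weakly, 10 ng/mL A, B, C, D and E correlated best with 100 ng/mL D, E, A, B and C (0.259, 0.388, 0.422, 0.428 and 0.21). For unstimulated A, B, C, D and E the best 100 ng/mL libraries were C, C, E, A and B (0.216, 0.252, 0.399, 0.394 and 0.559). Whether letters mark different batches in each group, or titles and libraries are out of step, cannot be told from the labels, and no samples were paired again. The replicate block follows these letters, so it cannot test how the results depend on pairing. With it 7049 genes were called at 100 ng/mL instead of 7555, and Klf4 stood at 0.57 (edgeR adjusted p = 0.0355). Pecam1's small rise (0.19, edgeR adjusted p = 0.0354) was not called under 15 of the settings, with 0.15 to 0.19. At 100 ng/mL, list counts moved by over 1.5 times as follows. Genes called lower around Thbd numbered 9 with 3 surrogate variables, 8 without 3 libraries and 3 at a threshold of 0.01, and higher shear sensors 9 at that threshold. With at least 10 CPM required in 5 libraries, which leaves fewer genes tested, nitric oxide genes numbered 3 higher and 3 lower, leukocyte markers 2 lower, early response genes 3 higher and Klf family genes 0 lower. With 3 surrogate variables 1 gene of the list lowered by shear was called higher. Depth limits Klf12, Klf15, Sema3g and Kcnj2, which are low in every group.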
